A study of Urocitellus parryii with 3 samples.

Results

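The reads described here are small RNAs from arctic ground squirrel liver that matched the genome at 10 or more positions. A distinct read is a run of 30 sequenced letters, and it was kept when the deposited table of positions listed it on 10 or more lines (scaffold, strand and position) for 1 stage. The rule kept 25426 of 576915 distinct reads over the 3 libraries, and it used the number of positions only, not abundance. Each kept read was counted once per stage, whatever its number of positions.

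The arctic ground squirrel (Urocitellus parryii) hibernates in multi-day bouts of torpor, in which metabolism and body temperature fall, broken by short arousals. RNA was pooled in equal amounts within a stage and cut from a gel at 18 to 30 nt, which gave 1 library per stage. The post-reproduction pool held 6 summer animals with normal body temperature, kept at 16 h of light and 8 h of darkness and killed under isoflurane. The early arousal and late torpor pools held 4 hibernating animals each, kept at 4 h of light and 20 h of darkness with implanted transmitters and allowed at least 4 torpor bouts. The labels name day 4 of a bout as the time of sampling and do not say how this applies to early arousal. The labels give housing at 20 °C with the summer light cycle and no separate temperature for hibernation. Season, light cycle, implant, anaesthesia and any difference in housing temperature therefore cannot be told apart from hibernation in any comparison with post-reproduction. No stage has a second library, so stages could not be tested against each other. Intervals are 95% intervals that take in counting error alone, and a ratio sets 1 library against another. Where 3 values follow each other without names, they stand in the order post-reproduction, early arousal, late torpor.

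Depth was similar, at 5614441, 5611673 and 5860476 placed reads. Values are given as counts scaled to CPM (counts per 1000000 placed reads), on which 3 counts correspond to 0.534, 0.535 and 0.512 CPM. The first 18 letters of the most abundant read, which are those of the hepatocyte miRNA miR-122-5p, made up 74.9%, 72.4% and 76.3% of placed reads in the 3 libraries, so the liver label held, and that read had 1 position.

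A small RNA matches a genome many times when its gene is present in many copies. Transfer RNA and ribosomal RNA genes are multicopy, some short interspersed repeats of rodents (SINEs) descend from transfer RNAs, and mitochondrial DNA has pieces copied into the nuclear genome. Fragments of such RNAs are common companions of miRNAs in small RNA libraries, and some transfer RNA fragments end in CCA, the 3 letters that an enzyme adds to the 3′ end of transfer RNA.

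The reads were joined into 2611 sequence groups by shared runs of 16 letters, numbered by abundance over the 3 libraries. The leading reads below carry most of the results. They are written 5′ to 3′, with the part placed on the genome in capitals and unplaced letters before the adapter in lower case. Names of RNAs come from general knowledge of conserved sequences and were not matched to a squirrel reference. The first set has leading reads with letters of mitochondrial RNAs, and that of group 9, which was placed among them on the opposite strand and has no name here.
Group 5, mitochondrial 16S ribosomal RNA: AAGTAAAAGGAACTCGGCA
Group 12, mitochondrial 16S ribosomal RNA: GAAAGGACAAGAGAAATAAGGCCA
Group 14, mitochondrial 12S ribosomal RNA: AAGGACTTGGCGGTGCTTTAcacccctctt
Group 13, mitochondrial transfer RNA for leucine: GTTAAGATGGCAGAGCCTGGT
Group 6, mitochondrial transfer RNA for serine: AAGAAAGCATGCAAGAACTG
Group 9, not named: AACGAGGCCTCTGACGGCCAAa

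The second set has letters of cytoplasmic ribosomal RNA and of the 5′ parts of cytoplasmic transfer RNAs, or of repeats related to them.
Group 7, 18S ribosomal RNA: AACGAGACTCTGGCATGCTAACT
Group 8, 18S ribosomal RNA: AAAGTCGGAGGTTCGAAGACGATCA
Group 10, 28S ribosomal RNA: ATGTGAACAGCAGTTGAACAT
Group 11, transfer RNA for glycine: GCATTGGTGGTTCAGTGGTAGAATTCT
Group 3, transfer RNA for alanine and related SINEs: GGGGATGTAGCTCAGTGGTAGAG

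The third set holds short inserts ending in CCA and 2 groups with miRNA-like letters.
Group 20: ATCTCGCTGGGGCCTCCA
Group 26: ATCCCGGACGAGCCCCCA
Group 35: ATCTCGGTGGGACCTCCA
Group 41: ATCCTGCCGACTACGCCA
Group 45: ATCCCCGTACGGGCCACCA
Group 2, miR-378a-3p without its first letter: CTGGACTTGGAGTCAGAAGGCa
Group 4, not named: TGAGGTAGGAGGATGGAGAGTT

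Reads at 10 or more positions were a small part of the RNA and a large part of the table. There were 13108 of them in the post-reproduction library, 8983 in that of early arousal and 7092 in that of late torpor, or 5.24% (5.16 to 5.33), 3.51% (3.44 to 3.58) and 3.72% (3.63 to 3.80) of the distinct reads of each library. Counted once, they held 29168, 18080 and 15453 reads, which is 0.520% (0.514 to 0.525), 0.322% (0.318 to 0.327) and 0.264% (0.260 to 0.268) of placed reads. The post-reproduction library was thus highest by both measures, with intervals that do not overlap. In these mixed tissue samples, fewer cells of a type and less of an RNA per cell cannot be told apart. The same reads filled 78.9%, 68.7% and 71.0% of the table's entries, because each was repeated at every position.

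Most of them were rare. A count of 1 was recorded for 82.6%, 83.8% and 81.7% of them, against 78.5%, 79.7% and 78.1% of reads at 1 to 9 positions. Their mean abundance was 2.23, 2.01 and 2.18 reads, against 23.6, 22.7 and 31.8 for the other reads. A total of 10864 (42.7%) were seen in post-reproduction alone, 6711 (26.4%) in early arousal alone and 5053 (19.9%) in late torpor alone. The 959 seen in all 3 libraries (3.77%) held 44.2% of the reads, and of the other reads 6.39% were seen in all 3. Of all 576915 distinct reads, 493466 were seen in 1 library only, so presence in a single library was usual in the whole set too.

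The number of positions was uneven. Medians were 43 positions in post-reproduction and 16 in each hibernation library, and the highest values were 2846, 3578 and 3472. Reads at 100 to 249 positions numbered 5423 (41.4%), 1721 (19.2%) and 1203 (17.0%). They held 2578 CPM in post-reproduction, against 514 and 446 CPM in the hibernation libraries. Reads at 10 to 19 positions were closer, at 2205, 2142 and 1736 CPM. No read lay on more than 250 scaffolds, 370 lay on exactly 250, and 1121 lay on 240 to 249, so the highest numbers of positions may be limits of the table. Just outside the rule, 1718, 1416 and 1397 distinct reads lay at 8 positions and 2920, 2513 and 1963 at 9, while 3194, 2303 and 2073 lay at 10.

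**Figure D1:**
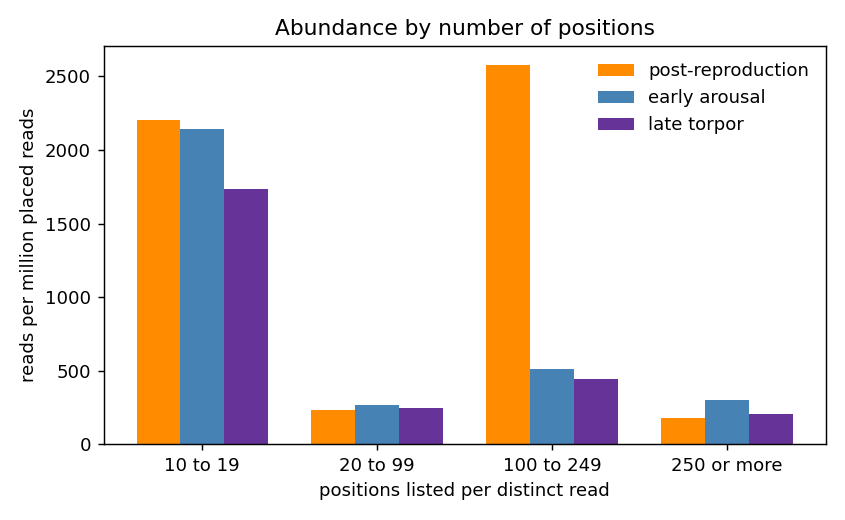
Abundance (CPM, linear axis) of distinct reads at 10 or more positions, by number of positions per read; each bar is 1 library. Reads at 100 to 249 positions reached 2578 CPM in post-reproduction against 514 and 446 CPM in the hibernation libraries, while the other 3 classes differed less.

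The placed part of these reads was longer than that of other reads. The median of the longest placed length was 21 bases in each library, against 19 for reads at 1 to 9 positions. Only 22.3%, 22.1% and 24.5% were placed over 18 or 19 bases, while 51.2%, 59.7% and 56.2% of the other reads were. Placement over 24 to 29 bases was found for 27.8%, 27.3% and 24.8%, against 7.16%, 6.01% and 5.77%. Weighted by reads the order was different, with medians of 22, 22 and 21 bases against 23 bases in each library for the other reads. Placed lengths include adapter bases that matched the genome. By reads, the placed part ran into the adapter in 16.3%, 17.2% and 20.6% of these reads. For the other reads it did so in 46.1%, 36.5% and 40.5%. By distinct reads the shares were 16.3%, 17.5% and 18.7% against 6.95%, 5.90% and 6.45%. How far adapter bases shaped either order was not tested.

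**Figure D2:**
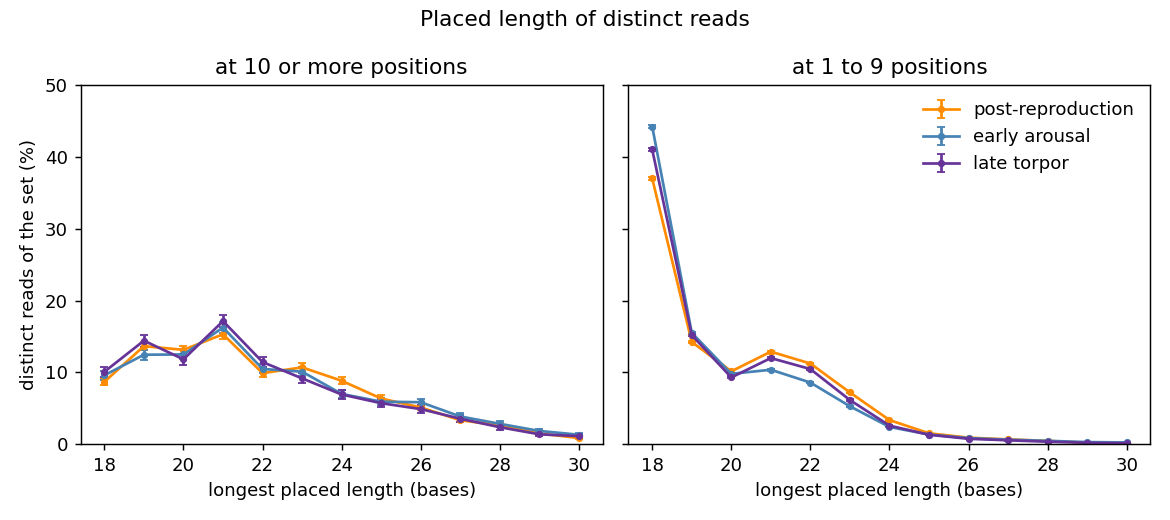
Longest placed length (bases) of distinct reads at 10 or more positions (left) and at 1 to 9 positions (right), as percent of the distinct reads of the set; points are libraries and bars are 95% binomial intervals. The left curves peak at 21 bases, and the right curves start highest at 18 bases.

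Many positions covered only part of a read. In 67.9%, 72.7% and 67.8% of these reads the placed length differed between positions. When only positions with the longest placed part of the insert were counted, 8825 (67.3%), 5177 (57.6%) and 4386 (61.8%) still had 10 or more, and 13.7%, 18.4% and 16.6% had just 1. Group 2 was such a case, since its leading read had 13 positions and only 1 of them covered all 21 placed letters. By contrast, all 205 positions of the leading read of group 5 covered the whole 19-base insert. Near copies were common as well, since 12521 of the 25426 reads (49.2%) had another read 1 letter away and 3849 (15.1%) had one at least 10 times as abundant.

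The first base differed from that of miRNA-rich small RNA. Among distinct reads at 10 or more positions, T came first in 16.6% (16.0 to 17.3), 21.9% (21.1 to 22.8) and 24.4% (23.4 to 25.4) of the 3 libraries. Among other reads the shares were 59.8%, 59.5% and 62.6%. Adenine came first in 43.7% of them in post-reproduction, against 29.1% in early arousal and 29.7% in late torpor. Guanine came first in 26.0%, 34.8% and 31.2%, and cytosine in 13.6%, 14.2% and 14.7%. T at base 1 together with A at base 10 of the same read stood in 7.30%, 12.1% and 14.4% of them. In the others the shares were 47.2%, 46.6% and 50.3%, a set that holds the letters of miR-122-5p, which has both. Simple sequence (1 base at 70% or more, or a tandem repeat of units of 1 to 6 bases) was 1.27%, 0.757% and 1.25% of these reads.

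**Figure D3:**
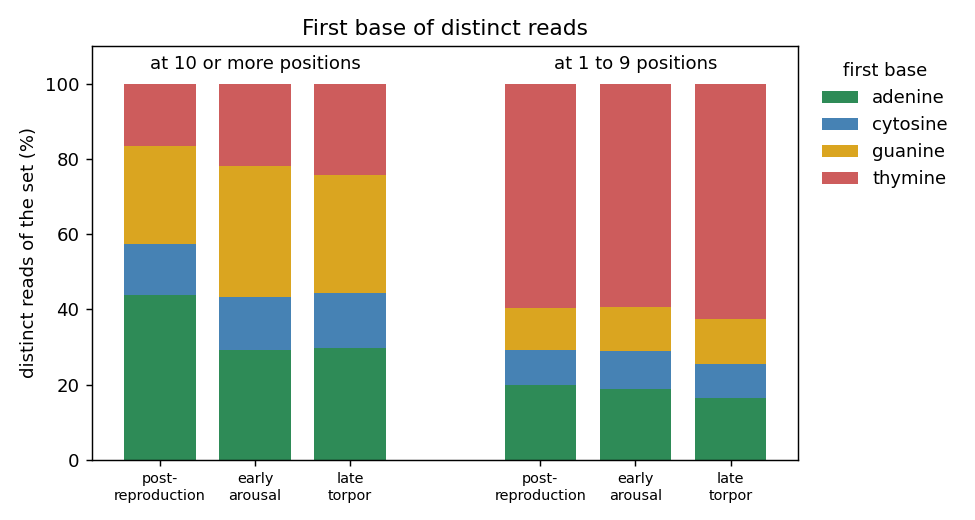
First base of distinct reads at 10 or more positions (left) and at 1 to 9 positions (right), stacked to the percent of distinct reads of each library. Thymine is 16.6% to 24.4% on the left and 59.5% to 62.6% on the right, and adenine is highest on the left in post-reproduction at 43.7%.

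Abundance was concentrated in few sequences. The 50 groups with at least 100 reads held 89.5% of the 62701 reads, and the 10 leading groups held 59.3%, 67.9% and 60.3% in the 3 libraries. The other extreme was 2039 groups made of a single distinct read. Among the 50 groups, 5 blocks were found in which leading reads stood at a constant distance on several scaffolds.

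**Figure D4:**
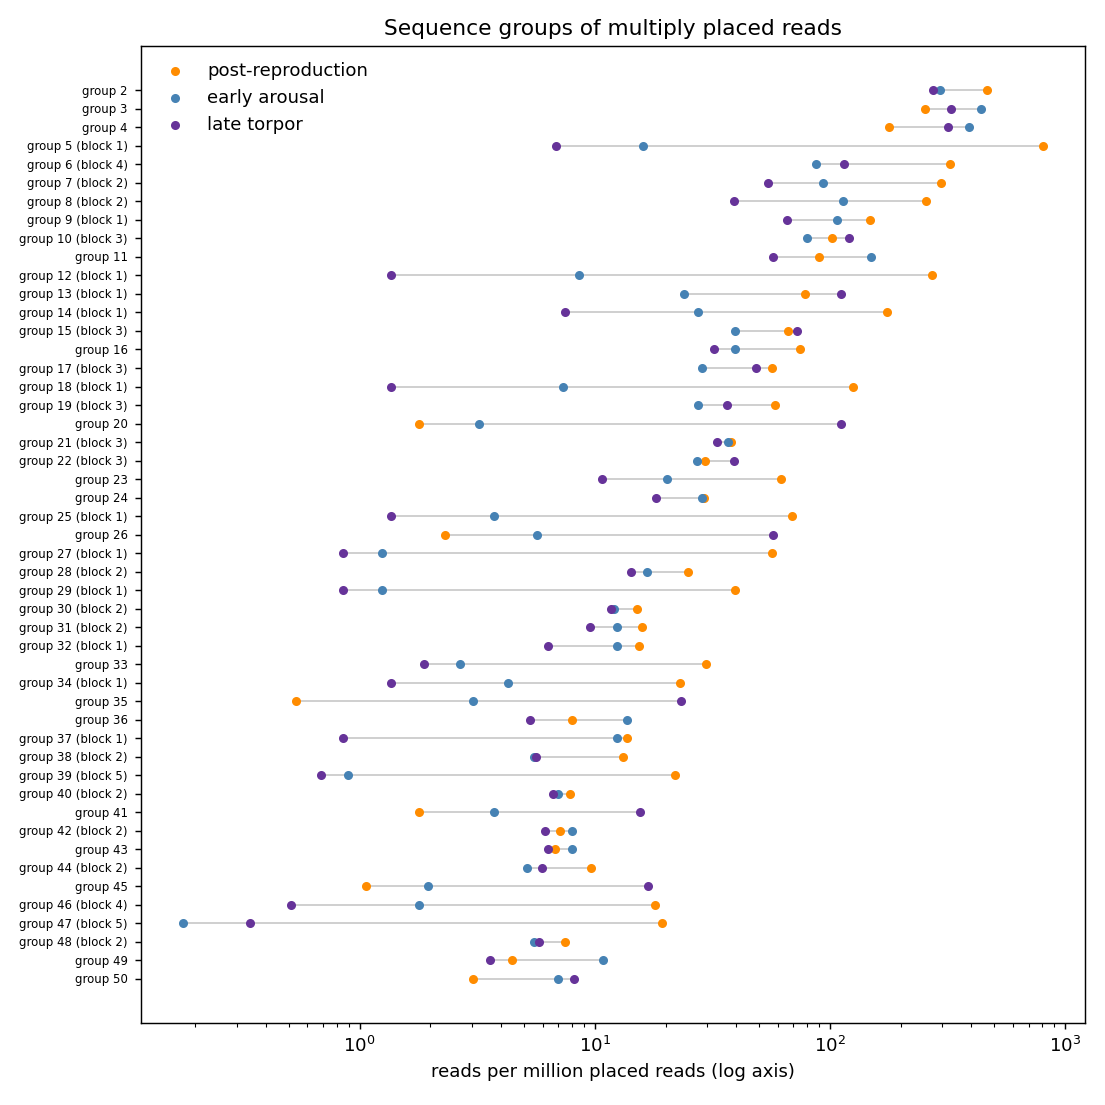
Sequence groups with at least 100 reads, ordered by total, from group 2 to group 50; points give each library in CPM on a log axis, and block numbers mark groups with a constant distance on the same scaffolds. Group 5 spans 6.83 to 803 CPM and group 20 spans 1.78 to 112 CPM, in opposite directions.

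Block 1 had the order of mitochondrial DNA. It joined 12 groups whose leading reads had 137 to 227 full positions each, counted at the longest placed part. Groups 34 and 37 lay 49 bases apart on 208 scaffolds, and groups 12 and 13, with letters of the 16S ribosomal RNA and the transfer RNA for leucine, lay 109 bases apart on 191 scaffolds. The 12S letters of group 14 lay 1308 bases upstream of group 5, and groups 9 and 25 lay on the opposite strand. In mitochondrial DNA the 12S gene, the 16S gene and this transfer RNA gene follow one another in the same order.

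This block was high in post-reproduction. It held 10226, 1269 and 1207 reads, or 35.1%, 7.02% and 7.81% of all reads at 10 or more positions. On the CPM scale these were 1821, 226 and 206, a ratio of late torpor to post-reproduction of 0.113 (0.106 to 0.120) and of early arousal to post-reproduction of 0.124 (0.117 to 0.132). Among groups with at least 100 reads over both libraries, 10 of 11 were at least 2-fold lower in late torpor than in post-reproduction and 9 of 12 in early arousal. Over all 18-letter starts in the libraries with as many reads, a smaller unit than a group, 22.6% and 10.7% were. Most of the lower groups reached 100 reads only through post-reproduction. Leaving out 1 group at a time, done after seeing the data, gave 0.0542 to 0.195 for late torpor and 0.0711 to 0.206 for early arousal. The order of the hibernation libraries depended on single groups. Their summed ratio of early arousal to late torpor was 1.10 and turned to 0.842 under trimmed mean of M-values (TMM) scaling. Without group 13 it was 2.14 (1.93 to 2.37), from 1134 and 554 reads, or 1.64 with TMM, and without group 9 it was 0.850 (0.766 to 0.942). The median over the 12 groups was 2.55.

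Group 5 had the most reads of the block in post-reproduction, while group 9 had the most in early arousal and group 13 in late torpor. It had 4507 reads in the post-reproduction library, 90 in that of early arousal and 40 in that of late torpor. The post-reproduction library stood far above the other 2, with ratios of 0.00850 (0.00607 to 0.0116) for late torpor and 0.0200 (0.0160 to 0.0246) for early arousal. Its leading read was counted 764, 13 and 4 times. Group 12, with other letters of the 16S RNA, had 1532, 48 and 8 reads, and its leading read 115, 4 and 0. Group 14, from the 12S RNA, had 987, 155 and 44 reads. Groups 18 and 27 followed the same order with 705, 41 and 8 reads and 320, 7 and 5 reads.

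The transfer RNA for leucine in the same block went the other way in late torpor. Group 13 had 440, 135 and 653 reads, and was highest in late torpor, with a ratio to post-reproduction of 1.42 (1.26 to 1.61). Its leading read had 26, 21 and 216 counts, and the form 1 base longer, GTTAAGATGGCAGAGCCTGGTA, had 35, 12 and 154. Group 37, between groups 34 and 12, differed between the hibernation libraries, with 77, 70 and 5 reads and a ratio of early arousal to late torpor of 14.6 (5.98 to 46.4). Group 9, on the opposite strand, had 832, 601 and 386 reads, a narrower range than group 5.

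**Figure D5:**
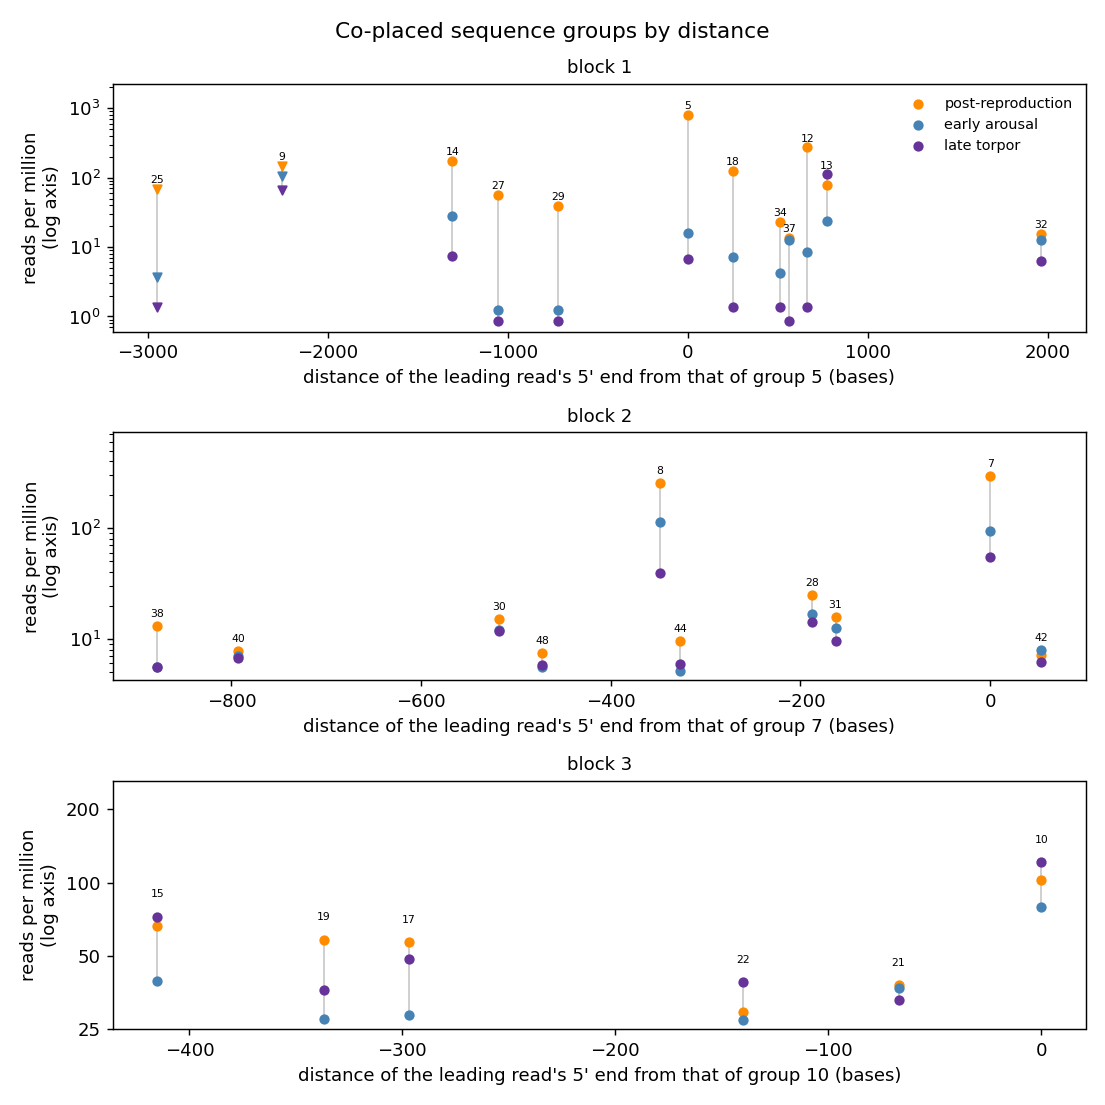
Abundance (CPM, log axis) of co-placed groups against the distance of their leading read from the 5′ end of the first group of the block, in bases; numbers are groups and triangles mark the opposite strand. In block 1 group 13 is the only group with late torpor highest, at 111 CPM, and in block 2 the post-reproduction excess is widest at groups 7 and 8.

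Blocks 4 and 5 were smaller and had 105 to 194 full positions for their leading reads. Block 4, groups 6 and 46 at 56 bases from each other, had 1923, 501 and 675 reads, and block 5, groups 39 and 47, had 232, 6 and 6. Both were highest in post-reproduction. Together with block 1 they joined 16 groups with 12381, 1776 and 1888 reads, which were 42.4%, 9.82% and 12.2% of the reads at 10 or more positions. These 3 blocks are the ones whose leading reads had at least 100 positions, and block 2 below, also highest in post-reproduction, was not among them. Without these 16 groups the remaining reads were 0.299% (0.294 to 0.304), 0.291% (0.286 to 0.295) and 0.231% (0.228 to 0.235) of placed reads. Post-reproduction and early arousal were then close, with intervals that overlap. The first base A made up 76.5% of the reads of the 16 groups in post-reproduction and 32.6% of the remaining reads there, against 20.9% and 27.5% of the remaining reads in early arousal and late torpor. With all 5 blocks left out, the reads had 1983, 2387 and 1804 CPM, so early arousal was then highest. The order of libraries among the remaining reads thus depended on which blocks were left out.

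In group 6 the 3′ end differed between libraries. A longer form, AAGAAAGCATGCAAGAACTGCTAA, had 103, 77 and 31 reads. The form AAGAAAGCATGCAAGAACT, which ends at base 19, had 461, 49 and 45 reads, and the placed form 1 base longer, printed above, had 462, 95 and 84. The form AAGAAAGCATGCAAGAACTa, with 1 unplaced A in place of the genomic G, had 13, 10 and 111 reads. It was high in late torpor alone, where its ratio to post-reproduction was 8.18 (4.59 to 15.8), while the ratio of the form ending at base 19 was 0.0935 (0.0673 to 0.127). Among reads of group 6 with an adapter, a single unplaced A closed 1.63%, 3.37% and 26.8% of inserts. Over all reads at 10 or more positions that share was 4.20%, 6.00% and 6.18%, and over the other reads 11.8%, 11.2% and 11.8%. Longer tails differed too, since 2 or more unplaced bases closed 2.25%, 6.48% and 31.3% of group 6 inserts. Over all reads at 10 or more positions these were 17.5%, 24.9% and 19.8%. Group 6 inserts without an unplaced tail were 94.9%, 89.1% and 40.7%.

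Reads with letters of cytoplasmic ribosomal RNA formed blocks 2 and 3, with 9 to 11 full positions per leading read. Block 2 (10 groups, 18S letters) had 3678, 1567 and 936 reads. Ratios to post-reproduction were 0.244 (0.227 to 0.262) for late torpor and 0.426 (0.402 to 0.452) for early arousal. Groups 7 and 8 made most of this difference, with 1669, 523 and 320 reads and 1441, 637 and 230 reads. The leading read of group 8 had 135, 44 and 2 counts. The median ratio of the 10 groups in late torpor was 0.612. Group 42 was not lower in early arousal, with 40, 45 and 36 reads and a ratio of 1.13 (0.719 to 1.77), or 0.896 under TMM scaling. Block 3 (6 groups, 28S letters) had 1974, 1344 and 2056 reads, with ratios to post-reproduction of 0.998 (0.938 to 1.06) for late torpor and 0.681 (0.635 to 0.730) for early arousal. Fragments of the 2 ribosomal RNAs thus did not share an order of libraries. Group 16, with 5S ribosomal RNA letters, had 421, 222 and 189 reads. Among these groups of reads at 10 or more positions, those with letters of ribosomal and mitochondrial RNA thus made up more of the post-reproduction library than of the others. Exceptions in direction were block 3, group 13 in late torpor and group 42 of block 2 in early arousal. Outside block 3, the interval of the ratio to post-reproduction also included 1 for groups 30, 40, 42 and 48 in late torpor. In early arousal it did so for groups 30, 31, 32, 37, 40 and 48 as well. Such letters in reads at 1 to 9 positions were not counted, and the part of these groups in the other differences was not tested.

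Groups 11 and 3, with 5′ letters of transfer RNAs, were highest in early arousal. Group 11 (glycine) had 504, 842 and 335 reads, and its form placed over all 30 bases had 3, 77 and 7. Group 3, whose leading read has letters of the transfer RNA for alanine and of SINEs, had 1422, 2457 and 1915 reads. These were spread over 3375 distinct reads and 470 starts. Linking by shared letters can join several RNAs, so this name does not extend to the other reads of group 3, including the next form. Its most abundant form placed over all 30 bases, GGGGGTATAGCTCAGTGGTAGAGCATTTGA, had 3, 43 and 0 reads, most of them in early arousal. TMM scaling moved all ratios by 0.05 on the log2 scale for late torpor to post-reproduction, by -0.33 for early arousal to post-reproduction and by -0.38 for early arousal to late torpor. With it, groups 11 and 3 were still highest in early arousal, group 3 with a ratio to late torpor of only 1.03 (0.967 to 1.09).

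In group 3 the leading read, at 572 positions, had 12, 27 and 172 reads and was high in late torpor, with a ratio to post-reproduction of 13.7 (7.66 to 27.1), while all reads sharing its first 18 letters had 409, 820 and 649.

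Short inserts ending in CCA were high in late torpor. Inserts of 18 bases with this end had 32 reads in the post-reproduction library, 75 in that of early arousal and 1277 in that of late torpor among reads at 10 or more positions. The ratio of late torpor to post-reproduction was 38.2 (26.9 to 56.1), and that of early arousal to late torpor was 0.0613 (0.0479 to 0.0775). Among reads at 1 to 9 positions the same inserts had 73, 96 and 225 reads, a ratio of late torpor to post-reproduction of 2.95 (2.26 to 3.90), and the intervals of the 2 ratios do not overlap. Group 20 had 10, 18 and 656 reads, group 26 had 13, 32 and 335, and group 35 had 3, 17 and 136. Groups 41 and 45 followed with 10, 21 and 91 reads and with 6, 11 and 99 reads. In these 5 groups late torpor was at least 2-fold above both other libraries, with ratios to post-reproduction from 8.72 to 62.8. Each of the 5 reached the minimum of 100 reads only through late torpor, so their shared direction is not a separate result. All 13 positions of the leading read of group 20 covered its 18 bases. Inserts of 18 to 25 bases ending in CCA, the lengths at which the adapter could be located, had 710, 266 and 1508 reads, a smaller ratio of late torpor to post-reproduction of 2.03 (1.86 to 2.23).

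Placed parts holding GTTCGA, letters found in the T arm of many transfer RNAs, were most frequent in post-reproduction. They stood in 3.90%, 2.86% and 1.76% of distinct reads at 10 or more positions, and in 0.0764%, 0.0587% and 0.0653% of the others. The motif was searched on the read strand only, and the 18S reads of group 8 hold it too, so it does not separate transfer RNA from other RNA.

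Reads with the most positions were rare. The read GGCTGGGGATGTGGCTCAAGCGGTAGTGGG, in group 3, had 3578 positions and was counted once, in early arousal. AGGCTGAGGCAGGAGGATTG had 2597 positions and TTATGTGGTGCTGAGGAT had 2318, and each was counted once in a single library. Reads at 250 or more positions had 177, 300 and 206 CPM. A simple repeat, ATGGATGGATGGATGGATGGTTt, had 1226 positions and 1 read, in late torpor. Rarity of these reads limits any comparison between libraries to their sum.

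Of the miRNA-like groups, group 2 reached 10 positions through shorter matches, while 12 of the 16 positions of the leading read of group 4 covered its whole insert of 22 letters. Group 2 had 2612, 1651 and 1604 reads in 802 distinct forms, highest in post-reproduction, with ratios of 0.588 (0.553 to 0.626) for late torpor and 0.632 (0.594 to 0.673) for early arousal. Its inserts had no unplaced tail in 11.7%, 6.98% and 10.4% of reads with an adapter. Group 4 shares its first 8 letters with let-7 miRNAs and had 998, 2202 and 1872 reads, lowest in post-reproduction. Its ratio to post-reproduction was 1.80 (1.66 to 1.94) in late torpor and 2.21 (2.05 to 2.38) in early arousal, or 1.76 under TMM scaling, which also turned its ratio of early arousal to late torpor from 1.23 to 0.942. The read of group 4 differed from the most abundant read with the same first 8 letters, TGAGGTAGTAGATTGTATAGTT (957973 reads, 2 positions, letters of let-7f-5p), by T9G, A12G, T13A, T16G and T18G, counted from the 5′ base. The part of sequencing errors in this group was not tested.

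Differences of at least 2-fold were counted for single reads with at least 100 reads over both libraries. For late torpor against post-reproduction, 38 reads could be compared, of which 9 were higher and 15 lower, while over all 3060 such reads 14.8% were higher and 28.9% lower. The corresponding shares of the 38 reads were 23.7% and 39.5%. The 15 lower reads all belonged to groups 5, 6, 7, 8 and 12, many as length or end forms of the same sequence. Such forms are not independent, in this or the next comparisons. For early arousal against post-reproduction, 5 of 37 were higher and 16 lower, against 21.8% and 21.9% of all 3241 reads. For early arousal against late torpor, 5 of 32 were higher and 8 lower, against 16.0% and 4.72% of all 2879 reads. Median ratios were 0.630, 0.618 and 1.11 for these reads and 0.906, 1.18 and 1.24 for all reads. The balance of the first comparison depended on partial placements: when only positions with the longest placed part of the insert counted, 17 reads remained for late torpor against post-reproduction, with 9 higher and 6 lower. Under the same setting more reads were still lower than higher for early arousal against post-reproduction (3 higher and 5 lower of 10) and against late torpor (1 higher and 8 lower of 15).

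Reads summed by their first 18 letters gave more starts to compare. For late torpor against post-reproduction, 37 of 61 starts were at least 2-fold lower and 11 higher, against 22.6% and 11.4% of all 580 starts. For early arousal against post-reproduction, 33 of 59 were lower and 9 higher, against 10.7% and 17.0% of all 607 starts. For early arousal against late torpor, 8 of 34 were lower and 9 higher, against 4.44% and 18.3% of all 586 starts. Starts of 1 group are linked by shared letters, often come from the same RNA and are not independent. By group, 20 of 41 were lower in late torpor than in post-reproduction, and 14 of these belonged to blocks 1, 4 and 5, while the 5 that were higher were the 5 with inserts of 18 or 19 bases ending in CCA.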

How the data were processed

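Small RNA libraries of 3 pooled liver samples were sequenced, per the labels' protocols. The authors deposited 1 table of 866747 genome positions, in which each entry joins a read, its raw read count and its stage (4218154 entries). Reads are 30 bases long, with the placed part (18 bases or more) in capitals. Aligner, genome build and filters: not given in the sources used here. A read carries the same count at every position, without exception, so it was counted once per stage.

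Shares have exact binomial (Clopper-Pearson) intervals and ratios of CPM exact conditional binomial ones. PCR reads carry no molecular identifiers, so these cover counting error only. The 3′ adapter was located after insert lengths of 18 to 25 nt, its first 5 bases allowing 1 mismatch, and from 3 bases at a read's end for printing. Groups joined placed parts that share 16 letters. Blocks, chosen after the data were seen, needed a constant distance (within 10 bases) on at least 5 scaffolds and at least 1 in 3 of the scaffolds of the smaller group. Named by rule were the 10 leading groups, the 5 reads with most positions, the 5 largest and smallest ratios of each comparison and the 3 most abundant reads placed over 30 bases, 1 per group. An item among them is not reported here. Other groups were named after their values were seen. The reads and lists were chosen with earlier results of these data known. Alternatives were the threshold, counts, placed length, simple sequence, scaling and read minimum. Code in Python 3.11.15 (numpy 2.4.6, scipy 1.17.1, matplotlib 3.10.9) was tested on simulated data.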

Additional observations from a re-analysis of the deposited data

How the results depend on the processing

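In the order post-reproduction, early arousal and late torpor, a threshold of 5 positions gave 26415, 20378 and 17094 reads with 1.23%, 0.913% and 0.830% of placed reads, and one of 20 positions gave 7231, 3997 and 2810 with 0.299%, 0.108% and 0.0901%. Reads counted at least 2 times numbered 2275, 1453 and 1301 (0.327%, 0.188% and 0.165%). Joining reads by placed part gave 3163, 2249 and 1794 (0.280%, 0.126% and 0.139%), and placed parts of at least 20 bases held 0.420%, 0.272% and 0.196%. Counting only positions with the longest placed part of the insert, an alternative chosen after seeing the data, left 5177 reads in early arousal and 4386 in late torpor, and shares of 0.319%, 0.156% and 0.166%. Post-reproduction was highest in all of these, while early arousal and late torpor changed places in share under the joined placed parts and the longest placed part.

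Counts of reads at least 2-fold different for late torpor and early arousal against post-reproduction and for early arousal against late torpor were 24, 21 and 13. They became 37, 33 and 26 at 5 positions and 145, 148 and 70 with at least 20 reads over both libraries. At 20 positions they were 11 for early arousal against post-reproduction and 7 against late torpor. The longest placed part gave 15 for late torpor and 8 for early arousal against post-reproduction, and placed parts of at least 20 bases gave 8 for early arousal against late torpor. Fewer reads were compared under the stricter settings. TMM scaling left 24, 22 and 12, and leaving out simple sequence 24, 21 and 13. No paired analysis was possible because each stage has 1 library, and no library could be left out. Limits are the pooling of animals, the single library per stage, the unnamed genome build, a possible limit of 250 scaffolds per read and the low counts of most reads.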

Other observations

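Forms between the leading read of group 4 and the let-7f-5p read were tabulated over the first 20 letters. The form without substitutions had 1734133 reads, and the form with A12G alone (letters of let-7a-5p) had 327447. The form with all 5 substitutions had 2755 reads in 702 distinct reads, each at 10 or more positions. Forms with 4 of the 5 had 3709, 3992, 1459 and 432 reads, and the remaining 4-substitution form had 0. The form with T9G and T13A had 1779 reads, and no other form with 1, 2 or 3 substitutions was listed. The table lists placed reads only, so forms without a match in the genome leave no entry.

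Groups 39 and 47 formed block 5, with a distance of -1913 bases from the first to the second. In the order of libraries used above they had 123, 5 and 4 reads and 109, 1 and 2 reads. Group 24, with letters of the spliceosomal U6 RNA, had 163, 160 and 107 reads, and group 36, with letters of the 7SL RNA of the signal recognition particle, had 45, 77 and 31. Group 23, whose leading read has 216 positions, had 349, 114 and 63 reads and was joined to no block.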
